A study of Mus musculus with 70 samples.

Results

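Promoter interactions of 10 genes that encode transcription factors or cofactors of blood development were examined: Ikzf1, Myb, Runx1, Gata2, Tal1, Lmo2, Fli1, Erg, Klf1 and Gfi1b. The genes were chosen by name with earlier results of these data known, and they are 10 of 20780 autosomal protein-coding gene symbols. An interaction was assigned to a gene if one end lay in a 10-kb bin that holds a transcription start site (TSS) of the gene in GENCODE, which gave 20 TSS bins of 35174 in the genome and 317 of 248620 distinct interactions. In pooled calls from liver (LV), 109 interactions belonged to these genes.

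The interactions were measured by H3K4me3 PLAC-seq, in which chromatin is ligated in proximity and immunoprecipitated with an antibody against a histone mark of active and poised promoters. Fetal C57BL/6N tissues were used without treatment. At E12.5 they were LV, limb (LM), craniofacial prominence (CF) and 4 neural tissues, namely neural tube (NT), hindbrain (HB), midbrain (MB) and forebrain (FB), and FB was also taken at 4 later embryonic stages up to E16.5 and at birth (P0). Each of these 12 tissue-stages had 2 biological replicates, 24 libraries in all. CTCF ChIP-seq was available for the same 12 tissue-stages. Every sample was whole tissue that mixes cell types, so a contact made in fewer cells and a weaker contact per cell cannot be told apart.

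The fetal liver is where most blood cells are made in midgestation, and red cell precursors are abundant in it. Tal1, Lmo2 and Gata2 act together in a complex with Gata1 and Ldb1 that occupies regulatory elements of stem, progenitor and red cells; Runx1 is required for the first definitive stem cells to emerge from endothelium. Fli1 and Erg are ETS factors of stem cells, megakaryocytes and vessels, Myb keeps progenitors expanding, Klf1 drives red cell genes, Gfi1b is a repressor of red cells and megakaryocytes, and Ikzf1 acts mainly in lymphocytes and progenitors. Gata1 lies on the X chromosome, outside the 19 autosomes on which interactions were called.

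CTCF is the zinc finger protein that stops loop-extruding cohesin, and the direction of its motif is tied to the side on which loops form. The CTCF sites below are printed because they lie in the TSS bins and partner bins that carry the main LV results. Each line gives the best motif under a CTCF peak of the LV list on GRCm38 (mm10), read 5′ to 3′ on the strand of the motif, with the 19-bp motif in capitals and 5 flanking bases on each side in lower case.
Runx1, proximal TSS bin, chr16:92698812-92698830, plus strand, intron of Runx1: cagacCGGACGCCAGGGGGCAGCAgcggc
Runx1, far upstream partner, chr16:93454439-93454457, minus strand, intergenic: ctttgTGGCCACTAGGTGGCGCTCatgcg
Ikzf1, upstream partner, chr11:11500109-11500127, plus strand, intron of Spata48: cgataTGAGCGCTAGAGGGCGTCCcaggt
Ikzf1, upstream partner, chr11:11557312-11557330, plus strand, intergenic: gtaaaTGGACGCCAGGTGGCAGTAgcaac
Ikzf1, downstream partner, chr11:11742926-11742944, minus strand, intron of Ikzf1: aagcaTGACCACAAGGTGGCGATAttggc
Lmo2, upstream partner, chr2:103865990-103866008, minus strand, intergenic: tgaggAGGCCAGAAGAGGGCACTGaaaca
Lmo2, upstream partner, chr2:103872120-103872138, plus strand, intergenic: cgtgcTGTCCTCCAGGTGGCGATGctggt
Tal1, downstream partner, chr4:115097360-115097378, minus strand, intergenic: gtgtaAAGCCACCAGATGGCAGCAgagct
Gfi1b, downstream partner, chr2:28592999-28593017, plus strand, intergenic: cagtaCTACCACTAGGAGGCGCCAtgctc
Gata2, upstream partner, chr6:88123690-88123708, minus strand, intergenic: tgatgCTGCCACTAGGGGTCCTTCttgag

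Libraries differed in how many interactions were called. LV had 15016 and 11396 interactions in replicates 1 and 2, against 12461 to 63868 in the other 22 libraries, and 21945 in the pooled calls against 51264 to 79677 elsewhere, although the authors had downsampled the pooled data to an equal number of usable reads. Numbers per gene were therefore scaled to the median library total of 25872 for the tests, and numbers as called are given first. A pair of bins that was not called has no value, and a pair could be called only where an end carried an H3K4me3 peak in that tissue, so a gene listed with 0 interactions may have contacts that were not tested or not called.

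Genes for other cell types were counted beside the blood factors to check the tissue labels. The summed scaled number over 34 red cell genes was 188 and 241 in the LV libraries and 23.0 to 40.1 in the 12 libraries of other tissues at E12.5. Over 24 hepatocyte genes the sum was 63.7 and 79.5 in LV and 7.47 to 54.5 elsewhere, and Alb and Hnf4a were at 0 in both LV libraries. Over 21 endothelial genes it was 18.2 and 24.1 in LV against 2.17 to 9.84, with Cdh5, Tek, Tie1 and Emcn at 0 in LV, and over 10 megakaryocyte genes 10.3 and 20.4 against 2.44 to 10.1. Over 16 macrophage and microglia genes LV (15.5 and 15.9) lay within the range of the others (4.37 to 18.7), and 13 of the 16, Csf1r, Ptprc and Adgre1 among them, were at 0 in LV. The part of these cell types in the results below was not tested.

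**Figure D1:**
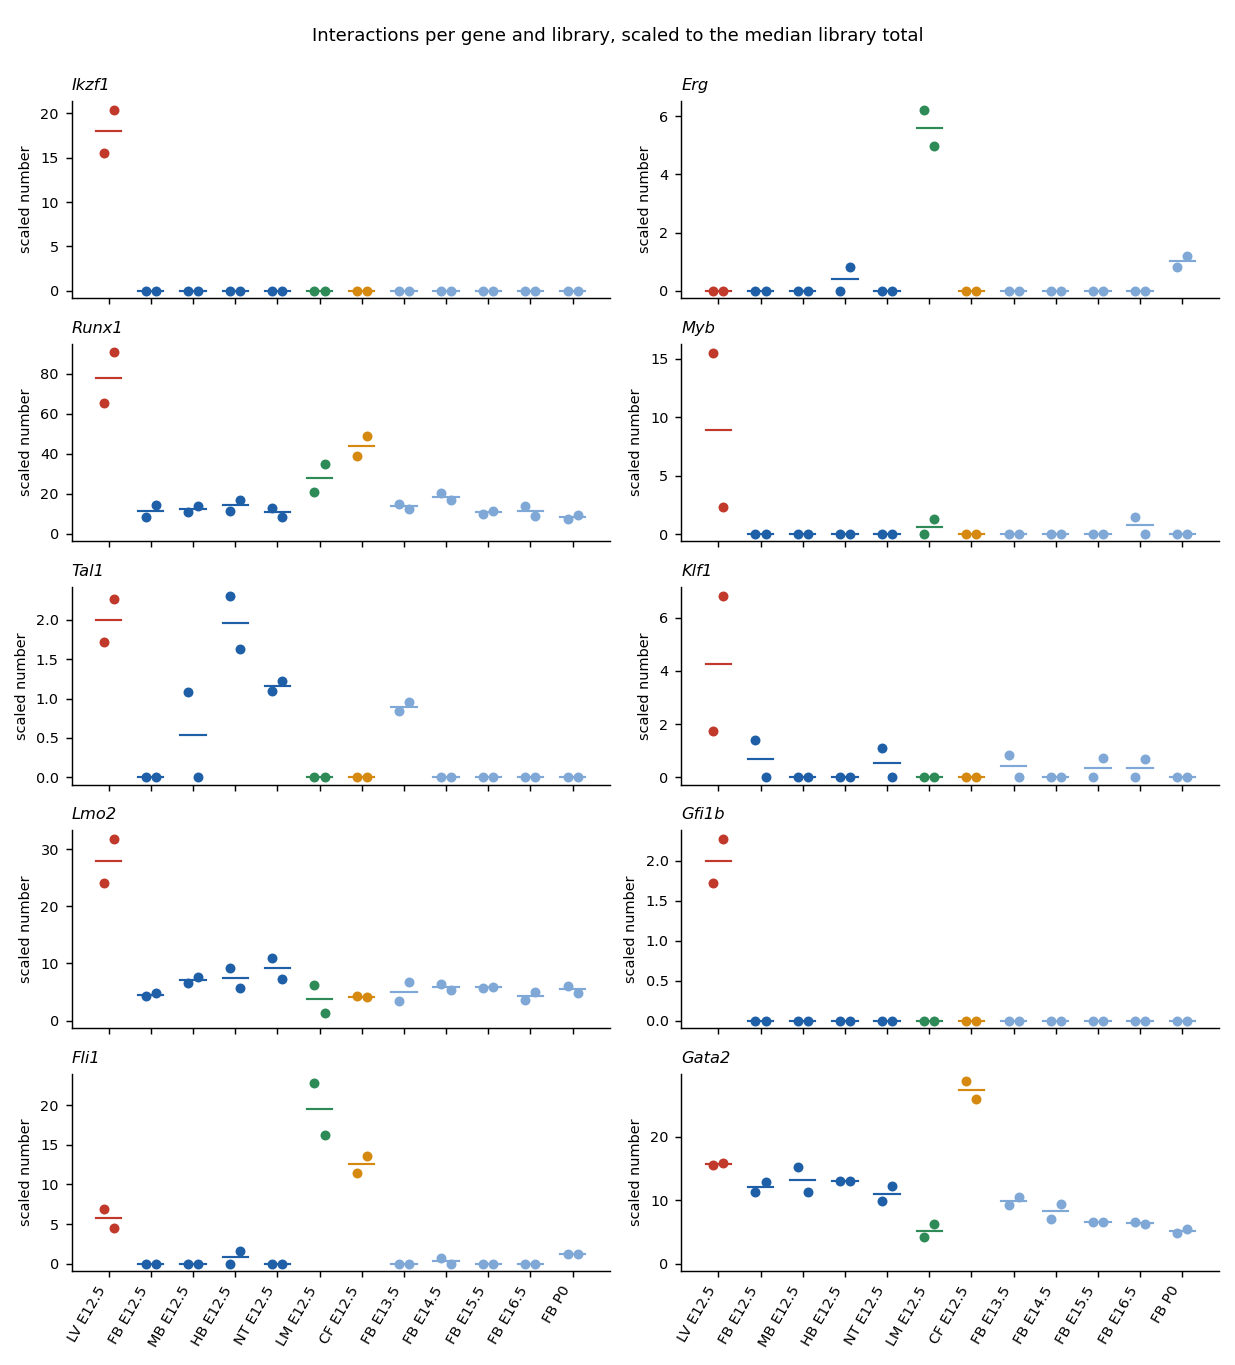
Scaled number of interactions (vertical axis, own scale in each panel) of each of the 10 genes in the 24 libraries, grouped by tissue-stage; points are the 2 replicates and the horizontal bar their mean, with LV in red, LM in green, CF in orange, other E12.5 tissues in dark blue and later FB stages in light blue. LV is highest for Ikzf1, Runx1, Lmo2, Myb and Klf1, whereas LM is highest for Fli1 and Erg and CF for Gata2.

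LV was compared first with the other tissues at E12.5. Ikzf1, Myb, Lmo2, Runx1, Klf1, Fli1 and Tal1 had more interactions in LV relative to library total, Gata2 and Erg did not pass the test, and Gfi1b had too few interactions to be tested. For Ikzf1, Runx1, Lmo2, Myb and Klf1 both LV libraries lay above each of the 12 libraries of the other tissues on the scaled number, an order held by 14.9% of all genes tested. Of 7363 genes tested, 20.7% were higher in LV and 19.9% lower (limma, adjusted p under 0.05), with a median difference of all genes of -0.22 on the log2 scale. Of the 9 blood factors that passed the filter on low numbers, 7 were higher, and that count is given as a description. Ikzf1, Tal1, Myb and Klf1 passed only through their LV libraries, so their scaled LV mean had to exceed that of the other 22 libraries. With edgeR, 15.1% of all genes and 6 of the 9 factors were higher. Few interactions were called in the LV libraries, and without scaling or with TMM scaling 4 of the factors (Ikzf1, Runx1, Lmo2 and Myb) stayed past the threshold; over all genes the calls then split into 533 higher and 1513 lower, or 712 and 1618, against 1524 and 1467 with scaling to the total.

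Ikzf1, which encodes the zinc finger protein Ikaros, had interactions in LV alone. It had 9 interactions in each LV library and 0 in all 22 other libraries, and the pooled calls gave 10 in LV and 0 in each of the other 11 tissue-stages. The groups did not overlap. On log2(scaled number + 1) the difference was 4.23 ± 0.22 (SE; limma, adjusted p = 1.65e-11; edgeR, adjusted p = 1.89e-06), a size that depends on the added 1, since the other tissues were listed at 0. Ikzf1 passed the filter on low numbers only through LV, so these p values are a description. All 10 partners lay within 180 kb. Of these, 7 were upstream, in a stretch at -160 to -180 kb (chr11:11500001-11530000) whose bins at -170 and -180 kb overlap Spata48 and one without annotated genes at -110 to -140 kb (chr11:11540001-11580000), and 3 lay inside Ikzf1 itself at +40 to +60 kb (chr11:11720001-11750000). The highest observed/expected ratio, 3.89, was at -130 kb, with 50 read pairs against 12.9 expected, and the intragenic bin at +50 kb joined 136 read pairs against 53.6. Of the 10, 6 were called in both LV replicates and 4 in 1.

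No CTCF peak with a motif was found in the TSS bin of Ikzf1 in any of the 12 lists, but each of the 3 partner stretches held 1, namely the 3 Ikzf1 sites printed above. Their motifs pointed inwards, with plus-strand motifs upstream and a minus-strand motif in the gene. All 3 had peaks in all 12 lists, including tissues without a called Ikzf1 interaction. The intragenic site had a fold enrichment over input of 30.3 in LV and 7.17 to 16.6 in the other 11 lists, whereas the upstream sites (18.8 and 30.4 in LV) lay within the range of the others.

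Myb, a factor of progenitor expansion, had 9 and 1 interactions in LV replicates 1 and 2. In the 12 other libraries at E12.5, 11 were at 0 and the highest had 1. The scaled LV libraries, 15.5 and 2.27, differed widely but both lay above the others, and the difference was 2.78 ± 0.41 (SE; limma, adjusted p = 1.94e-05; edgeR, adjusted p = 0.000321). Myb passed the filter on low numbers only through LV, so these p values are a description. Without LV replicate 1, Myb fell below the filter. The pooled calls showed less contrast, with 9 interactions in LV, 3 to 9 in the other tissues at E12.5 and 0 to 10 in later FB. Of the 9 LV partners, 6 lay downstream in Ahi1 at +120 to +190 kb and were mostly shared with other tissue-stages. The other 3, upstream at -180 and -190 kb in Hbs1l (chr10:21330001-21360000), were called in LV alone, with 20 to 22 read pairs each and ratios of 2.65 to 3.17. Of the 9, 5 were called in 1 LV replicate and 4 in neither. The intergenic stretch between Myb and Hbs1l is known for enhancers of red cell progenitors, but the LV partners lay outside it, in Hbs1l and Ahi1.

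Klf1, the Krüppel-like factor of red cells, had 1 and 3 interactions in the LV replicates, and 0 in 10 of the 12 other libraries at E12.5 with 1 in each of the remaining libraries. The difference of the scaled numbers was 2.01 ± 0.39 (SE; limma, adjusted p = 0.000345; edgeR, adjusted p = 0.0227), and without LV replicate 2 Klf1 was no longer tested. Klf1 passed the filter on low numbers only through LV, so these p values are a description. Its only TSS bin (chr8:84900001-84910000) also holds the TSS of Dnase2a, which has the same number by construction. The pooled LV calls, 2 against 0 to 3 elsewhere, did not stand apart in number. The called bins were not the same, by a small distance. Both LV partners, at -190 and -200 kb, held TSSs of Nfix. The farther bin also held that of Lyl1, a relative of Tal1, with 112 read pairs against 51.1 expected. No other tissue-stage had these 2 calls, but MB, LM and CF had a partner in the adjoining bin at -210 kb. Each LV call was made in only 1 replicate, with ratios of 2.08 and 2.19, close to the smallest ratio called. CTCF fold at a site in the LV partner bin at -200 kb was 46.3 in LV and 14.6 to 33.3 elsewhere.

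Runx1 had the most interactions of the 10 genes and was also well connected outside LV. It had 38 and 40 interactions in the LV libraries and 6 to 36 (median 13.5) in the 12 other libraries at E12.5. Scaled numbers averaged 78.1 ± 17.9 (SD, n = 2) in LV, 43.9 ± 7.28 in CF and 27.8 ± 9.98 in LM, and 8.46 to 18.7 in the other 9 tissue-stages. LV, CF and LM did not overlap with each other or with the rest, while most neural tissue-stages overlapped their neighbours in this order. LV exceeded the mean of the other tissues at E12.5 by 2.11 ± 0.25 (SE; limma, adjusted p = 1.13e-06; edgeR, adjusted p = 1.20e-09). In pooled calls as deposited, without scaling, LV had 44, below CF at 67 and near LM at 43.

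The partners of Runx1 were nearer in LV, as were those of genes in general: the median distance over all interactions with a TSS bin was 180 kb in LV and 260 to 300 kb elsewhere. Of 44 LV interactions, 43 ran upstream, with a median distance of 375 kb, against medians of 510 to 630 kb in the other tissue-stages, and whether this differs from the shift over all genes was not tested. The nearest upstream partner lay 100 kb away in LV and 140 to 400 kb away elsewhere, and 17 LV partners lay within 300 kb upstream against 0 to 6 elsewhere, a limit chosen after the values were seen. In LV, 14 interactions were called alone, including 4 partners at -100 to -130 kb within the gene, up to its distal promoter (chr16:92790001-92830000) and 4 at -160 to -190 kb (chr16:92850001-92890000). The far partners were shared instead: 6 interactions, at -570 to -760 kb, were called in all 12 tissue-stages, and the highest LV ratio, 6.25 at -600 kb with 28 read pairs against 4.48 expected, was one of them. In the pooled calls the farthest LV partner was at 780 kb, and the farthest elsewhere at 850 to 910 kb. A partner at -830 kb was called in 1 LV replicate but not in the pooled LV calls.

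Runx1 is transcribed from a proximal and a distal promoter, and the distal one (chr16:92820001-92830000) was an end of interactions in LV alone. It had 2 interactions in each LV replicate and 4 in the pooled LV calls, against 0 in the pooled calls of the other 11 tissue-stages. The proximal bin (chr16:92690001-92700000) had 41 in LV and 25 to 67 elsewhere. One of the 4 joined the distal bin to the proximal one, 130 kb apart, with 97 read pairs against 32.3 expected, and was called in both replicates. One joined the distal bin to a bin 110 kb downstream in the gene and was also called in both replicates. The others, at -310 and -320 kb, were called in neither replicate.

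**Figure D2:**
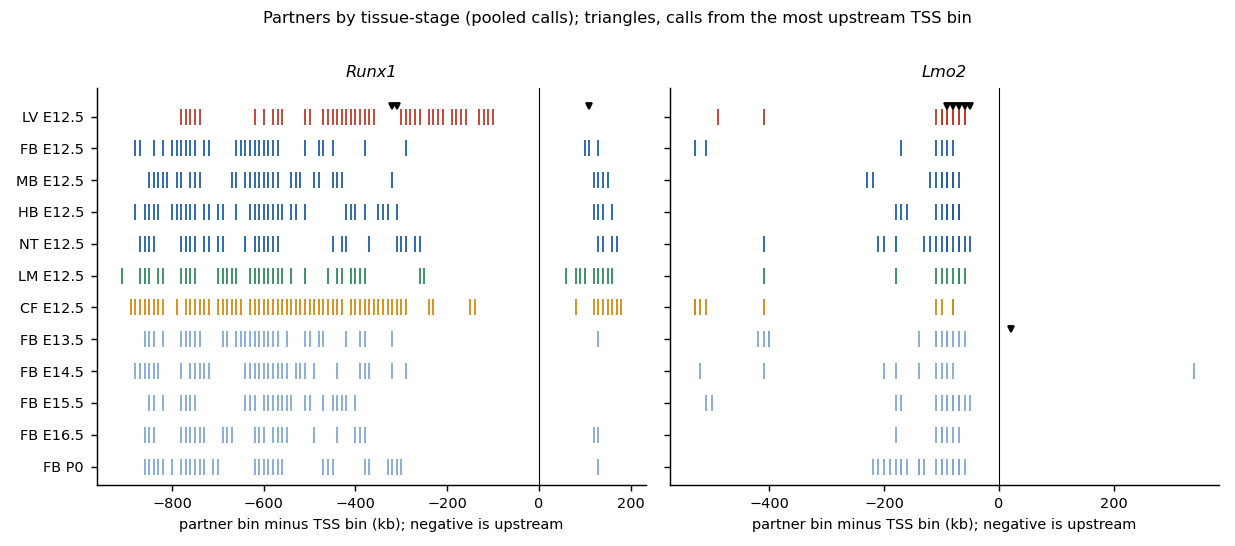
Position of the partner bins of Runx1 and Lmo2 relative to the TSS bin (horizontal axis, kb, negative is upstream) in the pooled calls of the 12 tissue-stages (rows); each tick is a call and triangles are calls from the most upstream TSS bin of the gene. LV alone has Runx1 partners between -100 and -130 kb and calls from the distal Runx1 promoter.

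The CTCF motif in the proximal Runx1 bin, printed above, is on the plus strand and so points towards higher coordinates, which is upstream of this minus-strand gene. The peak there had a fold of 54.1 in LV and 16.8 to 43.5 (median 25.4) in the other lists. All 40 LV interactions of this bin with bins outside the gene's own TSS bins ran to higher coordinates. Genome-wide, 78.2% of 2881 LV interactions from TSS bins with plus-strand motifs alone did so, 24.2% of 2911 from bins with minus-strand motifs and 49.6% of 5840 from bins without a motif. The shared partner stretch at -740 to -780 kb held a minus-strand site with a fold of 31.3 in LV, within the range of the other lists (22.9 to 49.4).

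Gata2, the zinc finger factor of stem and progenitor cells that is also used in neural and craniofacial development, was not higher in LV. It had 9 and 7 interactions in the LV libraries and 2 to 20 (median 11) in the other libraries at E12.5. Scaled numbers were highest in CF, at 27.3 ± 2.00 (SD, n = 2), followed by LV at 15.7 ± 0.272, and these 2 did not overlap with each other or with MB at 13.2 ± 2.73. LV differed from the mean of the others by 0.34 ± 0.20 (SE; limma, adjusted p = 0.193; edgeR, adjusted p = 0.688), and the difference was negative with TMM scaling (-0.24) and, past the threshold, for calls at an FDR below 0.1% (-1.47). Against all 11 other tissue-stages it was 0.66 and passed. Most LV partners were shared: 10 of 13 lay 190 to 320 kb downstream in or near Eefsec and Sec61a1, and the calls at +250 and +300 kb from the more upstream bin were present in all 12 tissue-stages. LV alone called +50 kb, with 63 read pairs against 28.4 expected, and -70 kb (chr6:88120001-88130000), with 61 against 28.1; no other tissue-stage had an upstream partner of Gata2. Neither was called in LV replicate 1 or 2 alone. The upstream bin holds the minus-strand CTCF site printed above, whose fold in LV (18.3) lay within that of the other lists (9.89 to 21.2). An enhancer far upstream of Gata2 is known to act in blood progenitors.

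Tal1, the basic helix-loop-helix factor of blood and of some hindbrain and spinal cord neurons, had few interactions everywhere. There was 1 in each LV library, and 0 to 3 in the others at E12.5, with 7 of 12 at 0. Scaled numbers in LV, 2.00 ± 0.387 (SD, n = 2), overlapped those in HB, 1.96 ± 0.478. LV passed the threshold against the mean of all others in limma (1.04 ± 0.28, SE; adjusted p = 0.00516) but not in edgeR (adjusted p = 0.238), and without LV replicate 2 the gene was no longer tested. Tal1 passed the filter on low numbers only through LV, so these p values are a description. LV shared no called partner with the other tissue-stages, and each LV call was made in only 1 replicate. In LV the partners were a bin at +40 kb with the TSS of Pdzk1ip1 (chr4:115090001-115100000) and one at +800 kb with that of Mknk1. The first had 248 read pairs against 119 expected, a ratio of 2.08, and neither was called in another tissue-stage. Other tissue-stages, HB above all, had partners mainly at -140 to -160 kb near Foxd2 or at +870 to +960 kb near Dmbx1 and Faah. MB also had a partner at +20 kb, within Tal1. An enhancer of red cells and their precursors is known downstream of Tal1, near Pdzk1ip1, and Pdzk1ip1 had 4 and 5 interactions of its own in the LV libraries and 0 in 21 of the 22 others. Since it passed the filter only through LV and the Tal1 call is 1 of those counted for it, no test is given. The CTCF site in that partner bin had a fold of 19.1 in LV and 9.37 to 20.6 elsewhere.

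Lmo2, the LIM-only protein that bridges Tal1 and GATA factors, had 14 interactions in each LV library and 1 to 12 (median 4.5) in the others at E12.5. Scaled numbers were 28.0 ± 5.42 (SD, n = 2) in LV and 3.74 to 9.12 in the other 11 tissue-stages, with no overlap between LV and the rest. The difference was 2.14 ± 0.33 (SE; limma, adjusted p = 2.80e-05; edgeR, adjusted p = 6.40e-07). All 18 pooled LV interactions ran upstream, 16 of them to 60 kb of sequence without annotated genes at -50 to -110 kb (chr2:103860001-103920000), and 14 were called in both replicates. The same stretch was contacted in other tissue-stages, mainly from the most downstream of the 3 Lmo2 TSS bins: the calls at -100 and -110 kb from that bin were made in all 12. LV differed in the bin of origin. The most upstream TSS bin (chr2:103950001-103960000) had 5 interactions in LV, with 4 in each replicate, against 0 in 10 tissue-stages and 1 in FB at E13.5. The middle bin had 6 in LV and 1 to 6 elsewhere, and the most downstream bin 7 and 5 to 14.

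The highest Lmo2 ratio in LV, 4.75, was at -100 kb, where 192 read pairs were seen and 40.4 expected. Both Lmo2 sites printed above lie in this stretch. The minus-strand site had a fold of 41.6 in LV and 11.1 to 31.8 in the other lists, while the plus-strand site, at 21.5 in LV, lay within the range of the others (8.80 to 48.9). The middle TSS bin had a CTCF peak with a plus-strand motif in LV (fold 9.90) and in 10 other lists (up to 7.41), and all 6 of its LV interactions ran to lower coordinates, the less frequent side for such bins in LV.

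**Figure D3:**
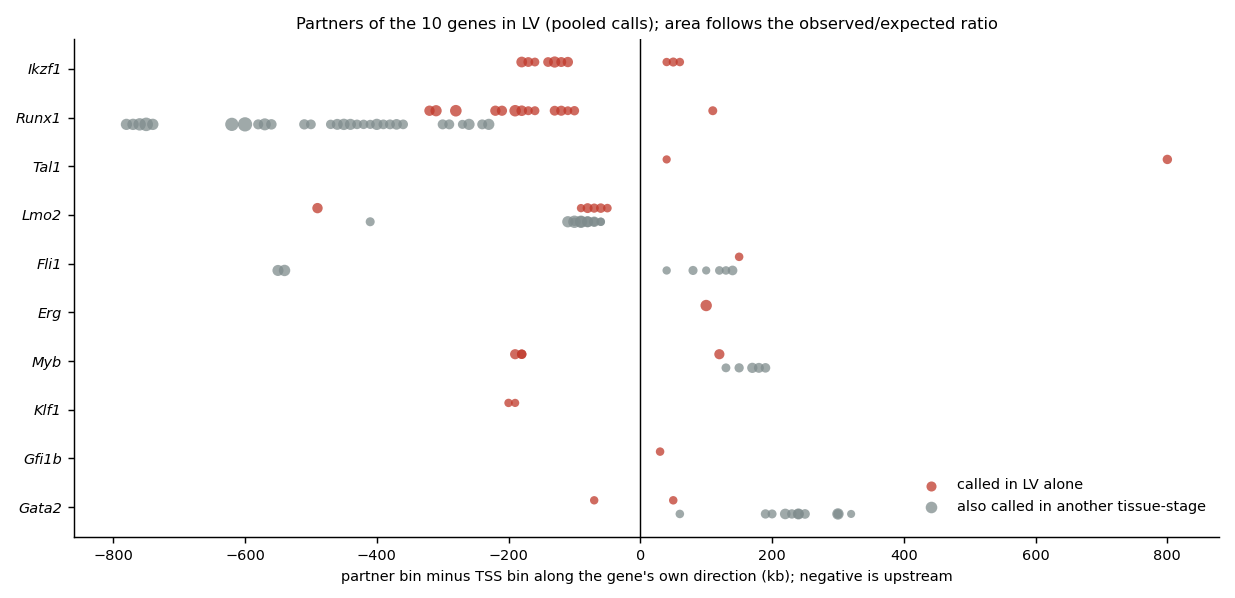
Partner bins of the 10 genes in the pooled LV calls by distance from the TSS bin along the direction of the gene (horizontal axis, kb, negative is upstream); red points were called in LV alone and grey points also in another tissue-stage, and the area follows the observed/expected ratio. Ikzf1, Tal1, Erg, Klf1 and Gfi1b have LV-only partners throughout, whereas the far Runx1 partners are shared.

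Fli1 and Erg, ETS factors that are also expressed in vessels, followed another order. Fli1 had 4 and 2 interactions in the LV libraries, 11 and 13 in LM, 8 and 10 in CF, and 0 in 7 of the 8 neural libraries at E12.5. Scaled means were 19.5 ± 4.70 (SD, n = 2) in LM, 12.6 ± 1.52 in CF, 5.72 ± 1.66 in LV and 1.21 ± 0.00789 in FB at P0, and these 4 did not overlap. Against the mean of all other tissues on the log scale Fli1 was higher in LV (1.26 ± 0.38, SE; limma, adjusted p = 0.0127; edgeR, adjusted p = 0.0136), although every LM and CF library lay above both LV libraries, and the call was lost without scaling, with TMM scaling and without LV replicate 1. For calls at an FDR below 0.1% the difference was negative (-0.42). Of 9 LV partners, 8 were shared with other tissue-stages. They formed a downstream group at +40 to +140 kb within or past the gene and an upstream pair at -540 and -550 kb, and the LV-only partner was at +150 kb, at the TSS of Kcnj1. No partner was called in both LV replicates.

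Erg had 0 interactions in both LV libraries, 3 and 4 in LM, 0 in both CF libraries and 0 in 7 of the 8 neural libraries. LV did not differ from the other tissues by the test (-0.52 ± 0.25, SE; limma, adjusted p = 0.0958), although the difference passed without HB replicate 1. The pooled LV calls held 1 interaction, 100 kb downstream in the gene, with 22 read pairs against 5.52 expected. Erg was the only gene of the 10 whose CTCF peak at the TSS bins was weakest in LV, with a fold of 3.72 against 5.28 to 10.3 elsewhere.

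Gfi1b, the repressor of red cell and megakaryocyte genes, had a single interaction, called in both LV replicates and in the pooled LV calls and in no other library or tissue-stage. It joined the TSS bin at chr2:28620001-28630000 to a bin 30 kb downstream (chr2:28590001-28600000) with 192 read pairs against 86.0 expected. Enhancers of Gfi1b are known downstream of the gene. The partner bin held 2 plus-strand CTCF sites, with folds in LV of 55.6 and 32.4 against 11.2 to 28.5 and 4.98 to 15.4 elsewhere, and the first of them is printed above. Sites in the Gfi1b TSS bins had folds of 16.0 (3.16 to 8.97 elsewhere) and 32.5 (10.2 to 39.4 elsewhere) in LV.

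**Figure D4:**
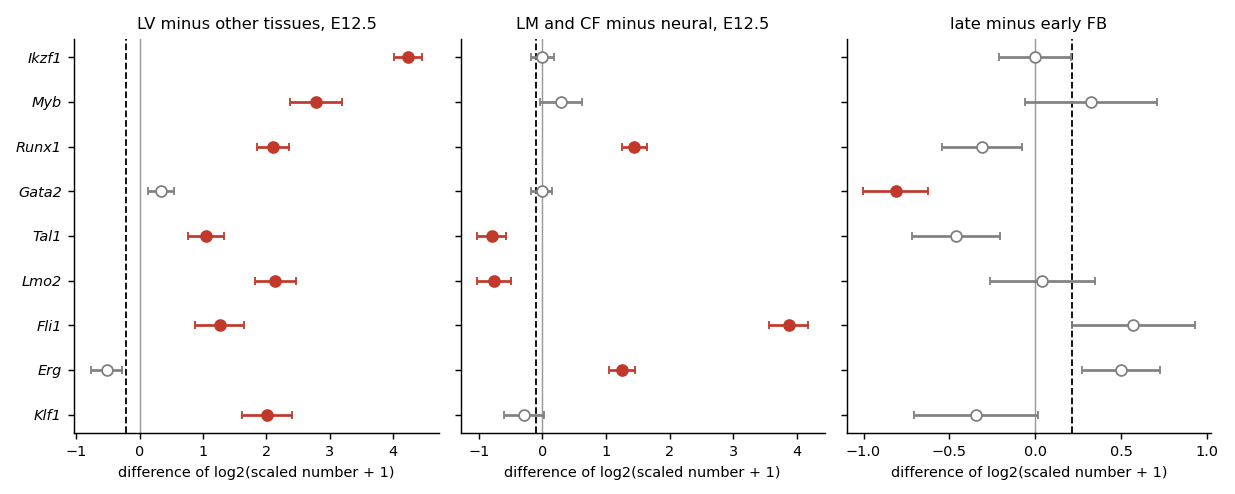
Difference of log2(scaled number + 1) with its SE for the 9 genes tested (horizontal axis) in the 3 comparisons; filled red points passed an adjusted p of 0.05 (limma), open grey points did not, the dashed line is the median of all genes and the grey line 0. LV differences range from -0.52 for Erg to 4.23 for Ikzf1, and Fli1 is the largest of the LM and CF differences at 3.87.

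LM and CF were then compared with the neural tissues at E12.5. Over all genes tested, 10.4% were higher in LM and CF and 14.3% lower (limma), and of the 9 blood factors 3 were higher and 2 lower. Fli1 rose by 3.87 ± 0.31 (SE; limma, adjusted p = 1.41e-08; edgeR, adjusted p = 2.32e-09). Runx1, with 10 and 28 interactions in LM, 27 and 36 in CF and 6 to 21 (median 11) in the neural libraries, rose by 1.45 ± 0.20 (SE; limma, adjusted p = 2.02e-05; edgeR, adjusted p = 2.15e-07). For these 2 genes every scaled LM and CF library lay above every neural one, as for 4.12% of all genes tested. Both keep their calls with edgeR, where 6.42% of all genes were higher and 6.78% lower.

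Erg passed in limma (1.25 ± 0.20, SE; adjusted p = 8.53e-05) from its LM libraries, since both CF libraries were at 0. It did not pass in edgeR, where its p was near 1. Tal1, at 0 in all 4 LM and CF libraries and at 0 to 3 in the neural ones, was lower (-0.80 ± 0.22, SE; limma, adjusted p = 0.0116), but edgeR did not call it. Lmo2, with 1 and 3 interactions in LM, 3 and 3 in CF and 3 to 12 (median 6.5) in the neural libraries, was lower in limma by a small margin (-0.76 ± 0.26, SE; adjusted p = 0.0388; edgeR, adjusted p = 0.213). That call was lost when any of 8 single libraries was left out, in which case the difference ranged from -0.34 to -0.79. In LM and CF, Fli1 partners were more numerous and farther than in LV, with 17 of 29 in LM and 11 of 19 in CF upstream of the gene, up to 700 and 710 kb away.

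In FB, late stages (E16.5 and P0) were compared with early ones (E12.5 and E13.5). Gata2 was the only blood factor past the threshold, against 9.30% of all genes that were higher and 4.62% that were lower (limma; 5.98% and 4.39% with edgeR, which called none of the factors), with a median of all genes of 0.21 on the log2 scale. It had 8 to 11 interactions (median 9.5) in the 4 early libraries and 9 to 12 (median 9) in the 4 late ones, which came from larger totals. Scaled, the means were 10.95 early and 5.80 late, and the difference was -0.81 ± 0.19 (SE; limma, adjusted p = 0.00706; edgeR, adjusted p = 0.0548). As called, without scaling, the difference was 0.039, so the fall is relative to library total, and over all genes the unscaled calls split into 2989 higher and 55 lower against 685 and 340. Ikzf1 and Gfi1b stayed at 0 in FB at every stage.

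The 109 LV interactions were set beside all 17065 LV interactions with a TSS bin. Of those of the blood factors, 39.4% (43) were called in LV alone, against 23.4% of all, and 33.0% in 6 or more tissue-stages, against 46.4%. Both replicates called 44.0% of them, against 27.7% of all. Those calls came from Runx1 (22), Lmo2 (14), Ikzf1 (6), Gata2 (5) and Gfi1b (1). No LV call of Tal1, Fli1, Erg, Myb or Klf1 was made in both replicates. The median distance of the 109 was 190 kb, against 180 kb for all. CTCF peaks with a motif lay at both ends of 19.3%, at 1 end of 57.8% and at neither end of 22.9%, against 25.4%, 49.8% and 24.8% of all. Interactions that share a TSS bin or neighbouring partner bins are not independent, and Runx1 alone gave 44 of the 109, so no test was made.

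CTCF binding at the promoters themselves was mostly shared between tissues. In LV, 7 of the 10 genes had a CTCF peak with a motif in a TSS bin, and Ikzf1, Tal1 and Fli1 had none in any list. Of the 20 TSS bins, 10 had such a peak in LV and 7 to 10 in the other lists, and 25.9% of all TSS bins did in LV. Among the 27 sites in TSS and LV partner bins with a peak in all 12 lists, the fold was largest in LV at 8 (29.6%). Of all autosomal sites with a peak in all 12 lists, it was largest in LV at 3451 of 23050 (14.97%). The partner bins were chosen by their LV calls, and LV partner bins of other genes were not counted. Whether the shares differ beyond that choice was not tested. Neighbouring sites of 1 locus share their surroundings, with 3 of the 8 at Gfi1b and 2 at Runx1. The LV list was made from technical replicates, so no spread between animals is known for it.

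**Figure D5:**
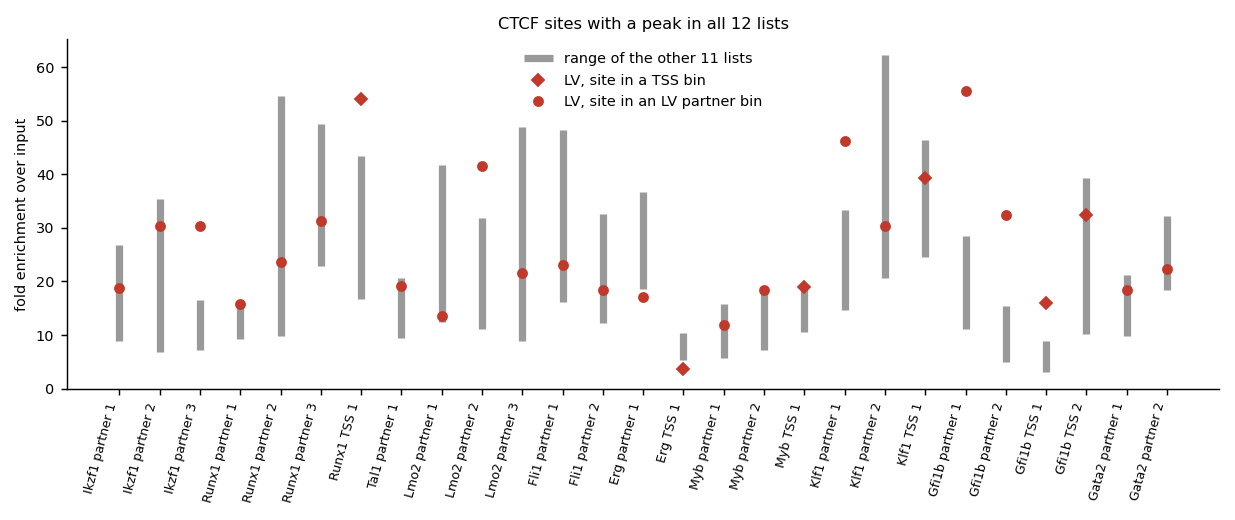
Fold enrichment over input (vertical axis) of CTCF sites in the TSS bins and LV partner bins that had a peak in all 12 lists; red diamonds (TSS bins) and circles (partner bins) are LV, and grey bars the range of the other 11 lists. LV lies above the range at 8 sites, such as 55.6 against 11.2 to 28.5 at Gfi1b, and below it at the Erg TSS bin.

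Other genes of blood programmes were counted in the LV comparison by limma. Over all genes 20.7% were higher and 19.9% lower. Of 29 further blood factors and cofactors, 20 were tested, 10 were higher and 2 lower, with a median of 0.51; 2 of the 20, Hhex and Epor, passed the filter only through LV. Hhex, a homeobox factor of liver and blood progenitors (3.30 ± 0.22, SE), and Klf3, a repressor of the Klf1 family (2.32 ± 0.24), were higher. Lmo4 (-3.16 ± 0.33) and Mecom (-3.42 ± 0.37) were lower. Of 35 red cell genes, 17 were tested, 13 were higher and 1 lower, with a median of 2.68, among them the adult globin genes Hbb-bs (2.97 ± 0.20) and Hbb-bt (3.43 ± 0.23), the membrane skeleton gene Ank1 (4.13 ± 0.35) and Hemgn (3.25 ± 0.28). Of the 17, 6 passed the filter only through LV, Hbb-bs, Hbb-bt and Hemgn among them. Their scaled LV mean had to exceed that of the other libraries, so these counts and their p values are a description. Adjusted p for the genes named here ranged from 4.76e-10 to 2.96e-07 (limma). With edgeR, 7 further blood factors were higher and 2 lower, and 13 red cell genes were higher and 0 lower, against 15.1% and 6.51% of all genes.

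Few genes of the other lists passed the filter, and their counts are again set against 20.7% of all genes higher in LV. Of the endothelial list 2 of 3 tested were higher, Esam (1.48 ± 0.43, SE) and Robo4 (1.32 ± 0.40), of the megakaryocyte list 1 of 3, Itga2b (1.79 ± 0.58), and of the macrophage list 1 of 7, Fcgr3 (3.06 ± 0.32). Of the hepatocyte list 3 of 9 were higher, among them the fibrinogen chain gene Fgg (2.97 ± 0.20) and the transferrin gene Trf (2.71 ± 0.34). Adjusted p ranged from 5.78e-10 for Fgg to 0.0180 for Itga2b (limma). Medians were 1.32, 0.92, -0.59 and 0.37, against -0.22 over all genes. Fcgr3, Fgg and Trf passed the filter only through LV, so their scaled LV mean had to exceed that of the other libraries. With edgeR, 1 of the 3 endothelial genes, 0 of the 3 megakaryocyte genes, 1 of the 7 macrophage genes and 3 of the 9 hepatocyte genes were higher, against 15.1% of all genes.

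Among genes with a TSS in an LV partner bin of a blood factor, Nfix (0.82 ± 0.20, SE; limma, adjusted p = 0.00242), Lyl1 (0.67 ± 0.23; adjusted p = 0.0245) and Eefsec (1.05 ± 0.37; adjusted p = 0.0304) were also higher in LV. Abtb2, Ahi1 and Sec61a1 had differences of 0.41, 0.58 and 0.43 that did not pass, and Mknk1, Kcnj1 and Hbs1l were not tested. The interaction with the blood factor is itself 1 of those counted for each of these genes.

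The genes whose numbers over the 24 libraries were most like those of each blood factor were found by Pearson's r of the log2 scaled numbers, as a description, since the libraries share tissues and depth. For Ikzf1 these were Dimt1 (0.9996), Fgg and Hbb-bs (0.999 each), all at 0 outside LV. For Runx1 they were E4f1 (0.869), Sod2 and Dnmt1, for Lmo2 Zbtb17 (0.846) and Lhpp, for Myb Vcpip1 (0.889), Erap1 and Tyk2, for Klf1 C330018D20Rik (0.848), Ucp2 and Coq2, and for Tal1 Cyp17a1 (0.815), Gm9837 and Ctrl. Fli1 was most like Igf2 (0.932), Tnnt3 (0.927) and Gm49394 (0.926), neighbours on chromosome 7.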

How the data were processed

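The 10 genes and all lists were chosen with earlier results of these data known. The deposited PLAC-seq values, per the file headers, are the count of read pairs of each called pair of 10-kb bins, the signal expected by the authors' MAPS model (the expected count) and the FDR, for each replicate and for pooled, downsampled replicates. The authors aligned reads to mm10 and called pairs 20 kb to 1 Mb apart whose FDR was under 1% and whose observed count was at least 2 times the expected one. For CTCF peaks, the deposited fold over input was given by MACS2. Where a second CTCF list with another number of peaks was deposited for a tissue-stage, values are from the list whose number of peaks matches the study's, and the second served as an alternative (LM not analysed there). The submitters' processing notes name BWA, SAMtools, Juicer and MACS2 without versions. Of the 70 samples, 24 are PLAC-seq, 23 CTCF and 23 input libraries, and the input libraries were not used. FB at P0 had 1 CTCF library, and those of LV and FB at E14.5 were technical replicates. 

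TSSs came from GRCm38 with GENCODE M21 (the study used M4), and interactions per gene were counted in Python 3.11.15 with pandas 2.3.3. limma 3.58.1 (trend) in R 4.3.3 was run on log2(scaled number + 1) for genes with a mean scaled number of at least 0.5, in a single model of 12 tissue-stages and 24 libraries with 12 residual degrees of freedom, with Benjamini-Hochberg adjustment over 7363 genes at 0.05. SEs measure the spread between replicates, not between tissues. edgeR 4.0.16 (quasi-likelihood) and DESeq2 1.42.0 took the numbers as called and adjusted for library size in the model. edgeR used the same library totals as the scaling, and DESeq2 its own size factors. In data simulated for the LV comparison over 7496 genes, limma gave p under 0.05 for 12.6% of 7298 unchanged genes and called 98 of them, and edgeR for 4.69% and called 1; limma recovered 4, 20, 41 and 48 of 50 genes changed 2-, 4-, 8- and 16-fold, and edgeR 3, 21, 39 and 46. The edgeR value is therefore printed beside limma for the blood factors. At an unadjusted p under 0.05, limma passed 3608 genes for LV, 2721 for LM and CF and 2081 for FB stages. edgeR gave a p near 1 in some comparisons with whole tissue-stages at 0, such as Erg in LM and CF. It did not in others, such as Ikzf1 in LV.

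CTCF motifs were the best match per peak to a 19-bp matrix estimated from 5000 LV peaks. Named genes were the 10 factors, genes with a TSS in their TSS bins or LV partner bins, up to 4 genes per list that passed in the LV comparison, those with the lowest adjusted p first, and the 3 genes most like each factor past the threshold. Some genes are not reported here. Libraries with the same replicate number did not deviate together (r of -0.0567 to 0.0302 for 21 pairs of E12.5 tissues and of -0.0297 to 0.0651 for 15 pairs of FB stages), and the tests left out pairing. H3K4me3 peaks, contact maps, expression and other marks were not analysed here. Depth beyond the numbers of interactions called is not given in the files.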

Additional observations from a re-analysis of the deposited data

How the results depend on the processing

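The numbers past the threshold depended on the tool, the distance limit and the scaling, and the causes were not tested. Over all genes, the LV comparison (2991) gave 1594 with edgeR, 638 with DESeq2, 1263 for interactions of at most 200 kb and 1665 with 2 groups over the 14 libraries at E12.5; LM and CF (1821) gave 972, 596 and 1113 under the first 3 of these; late FB (1025) gave 3044 without scaling, 214 with DESeq2 and 452 within 200 kb. Of the blood factors, LV (7) gave 4 without scaling, with TMM, with a mean of at least 1 and within 200 kb, and 2 with DESeq2; LM and CF (5) gave 3 with TMM, a mean of at least 1 and within 200 kb, and 2 with edgeR, DESeq2 and an FDR below 0.1%; late FB (1) gave 2 (Erg and Lmo2, higher) without scaling and 0 with edgeR, DESeq2, an FDR below 0.1% and within 200 kb. Leaving out 1 library, LV gave 1805 to 3121 genes and 5 to 7 factors, LM and CF 1362 to 1875 and 3 to 5, and late FB 535 to 770 and 1 to 1. Of 252 differences of single factors, 229 kept their side of the threshold without the reversal of a call, 16 lost the call, 3 gained it and 4 reversed: Fli1 in LV was -0.42 at an FDR below 0.1% and -0.10 within 200 kb, Gata2 in LV was -1.47 at an FDR below 0.1%, and Gata2 in late FB was 0.039 without scaling. A further 5 that passed the threshold under neither setting changed sign, Gata2 in LV with TMM scaling among them. Of 295 with 1 library left out, 285 kept their side of the threshold, and 8 of these, not called either way, changed sign. With the replicate block as a paired fit, LV gave 2994 genes and 7 factors, LM and CF 1819 and 5, and late FB 989 and 1. Restricted to calls in both LV replicates, the factors had 48 LV interactions, 60.4% of them in LV alone; with all CTCF peaks neither end had one at 13.8% of the LV interactions, and with a fold of at least 5 both ends did at 11.9%. Gfi1b without the filter was 1.58 and past the threshold. Fewer interactions were called in LV than in most libraries, which limits the numbers there.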
